A study of Mus musculus with 2 samples.

Results

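Mesodermal Progenitor cells (MP) were compared with Gut Mesenchyme/Amniotic Mesoderm cells (GM), the cell types that the authors named from their clusters of mouse embryo cells at E11.5. The members were taken from the deposited cell table by its cell type name. They were 1170 of the 5678 annotated cells, 496 of MP and 674 of GM, and each type was a single cluster of the authors. The UMIs (unique molecular identifiers, each a captured transcript) of every gene were summed over the cells of a type in each of the 4 suspensions, which gave 8 sums, 4 a side and paired by suspension.

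All embryos carried a DNA barcode linked to EGFP under CAG, a promoter active in most tissues, which the piggyBac transposon had inserted into the genome. The founders F0_8 and F0_9 were single embryos, which can be mosaics of cells with different insertions, and F1_1 was a single F1 embryo. F1_mix was an artificial mosaic of cells of F1 embryos and was counted as 1 suspension. No embryo was free of the transgene, and the 4 suspensions were tagged with oligos, pooled and run as 1 droplet library with a 3′ poly(A) capture. MP held 131, 96, 128 and 141 cells in F0_8, F0_9, F1_1 and F1_mix, and GM held 259, 171, 97 and 147. No cell barcode was shared between suspensions. The summed gene UMIs ran from 1395834 to 3286472, and the median cell held 17005 to 20786.5 gene UMIs in MP and 12354 to 14282 in GM. Levels are given as UMIs per 10000 gene UMIs.

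Embryonic mesenchyme is the loose tissue between the epithelia of limbs, trunk and gut, and it is the source of cartilage, tendon, smooth muscle and connective tissue. In a dividing cell, DNA is copied in S phase, when replication proteins and histones are made, and chromosomes are parted in mitosis after G2 phase. Cyclin B and its kinase Cdk1 start mitosis, Aurora and Polo kinases build the spindle and correct its attachments, and the anaphase-promoting complex ends it by marking cyclins and securin for destruction. Many transcripts of G2 and mitosis are switched on together through CCAAT boxes and an element called CHR near the start of the gene.

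Of 10954 genes tested, 3332 (30.4%) differed between the cell types with edgeR's quasi-likelihood test at an adjusted p under 0.05. They comprised 1760 genes (16.1%) higher and 1572 (14.4%) lower in MP, and the median log2 fold change of all genes tested was -0.02. Higher genes reached far larger folds than lower ones. At 2-fold or more, 377 genes (3.44%) were higher and 232 (2.12%) lower, and at 8-fold or more, 130 genes (1.19%) were higher and 0 (0%) lower. The 377 genes took 4.07 to 4.43% of all gene UMIs in the 4 MP sums and 0.909 to 1.10% in the 4 GM sums. Over the genes tested, the 4 levels of MP lay wholly above those of GM for 1381 (12.6%) and wholly below for 1670 (15.2%). The authors cut the clusters from the expression of these same cells, so these adjusted p-values say only how alike the 4 suspensions were, and not that the types were found independently.

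**Figure D1:**
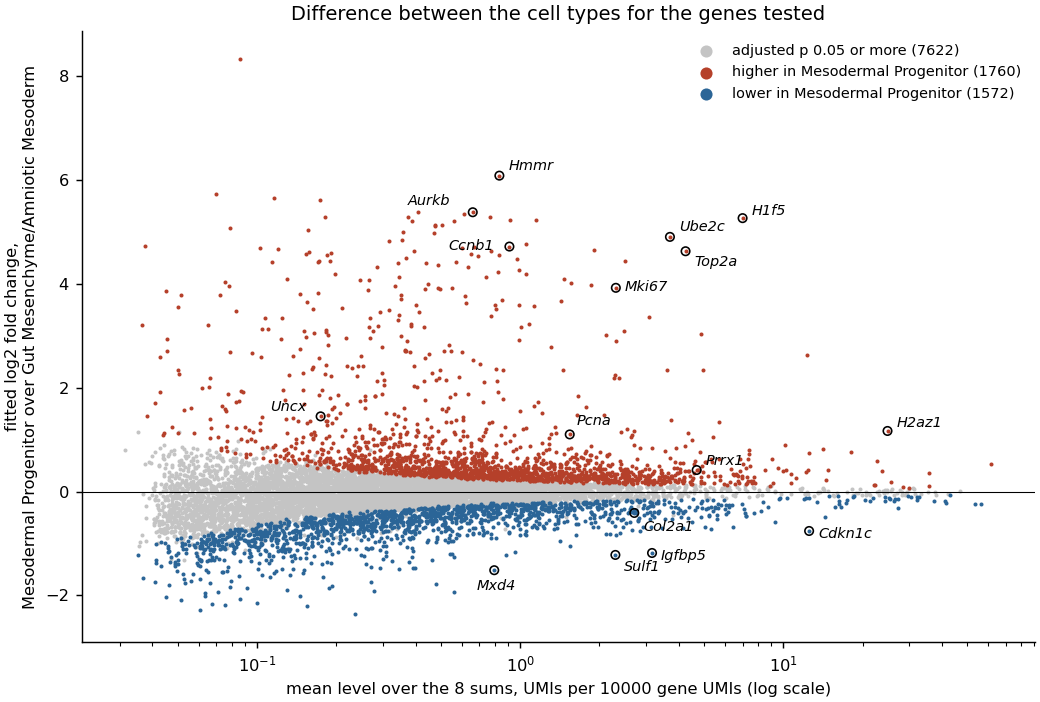
Fitted log2 fold change of MP over GM (vertical axis) against the mean level over the 8 sums in UMIs per 10000 gene UMIs (horizontal axis, log scale), 1 point per gene tested. Red points are the 1760 genes higher and blue points the 1572 genes lower in MP at an adjusted p under 0.05, grey points the 7622 others, and some of the genes named in the text are ringed. The red points reach above 5 on the log2 scale, while no blue point lies beyond -3, and the highest point, H2ac10, had no UMI in GM.

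The genes that led MP were genes of cell division. Among genes with at least 1 UMI per 10000 in every MP sum, the 15 with the largest folds were Hmmr, Aurkb, Ckap2l, Kif11, H1f5, Hist1h2ap, Nusap1, Sgo2a, Ube2c, Prc1, Ccnb1, Cdca2, Aurka, H2ac8 and Spc25, at fitted folds from 68.0 for Hmmr down to 24.9 for Spc25. Hmmr, Nusap1, Prc1 and Kif11 act on spindle microtubules, Aurka and Aurkb are the Aurora kinases, Sgo2a guards the cohesion of sister centromeres, and H1f5, Hist1h2ap and H2ac8 are histones. No marker of mesoderm was among the 15. The authors' name is kept here as a label, and its leading genes do not name a mesodermal cell type.

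Top2a (ENSMUSG00000020914), which untangles DNA before chromosomes part, stood at 8.44, 8.77, 7.40 and 8.01 UMIs per 10000 in the MP sums of F0_8, F0_9, F1_1 and F1_mix and at 0.405, 0.262, 0.380 and 0.326 in the GM sums. Ccnb1 (ENSMUSG00000041431), which encodes cyclin B1, stood at 1.92, 1.54, 1.80 and 1.74 in MP and at 0.0517, 0.0576, 0.0501 and 0.118 in GM. Aurkb stood at 1.37, 1.39, 1.19 and 1.204 in MP and at 0.0426, 0.0133, 0.0501 and 0.0236 in GM. For these 3 genes every MP sum exceeded every GM sum many times over. The 4 MP sums lay close together, while the low GM levels of Ccnb1 and Aurkb varied more between suspensions. The fitted log2 fold change was 4.63 ± 0.09 (SE) for Top2a, 4.72 ± 0.16 for Ccnb1 and 5.38 ± 0.18 for Aurkb, with adjusted p-values (edgeR) of 4.15e-12, 2.13e-10 and 2.04e-10.

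**Figure D2:**
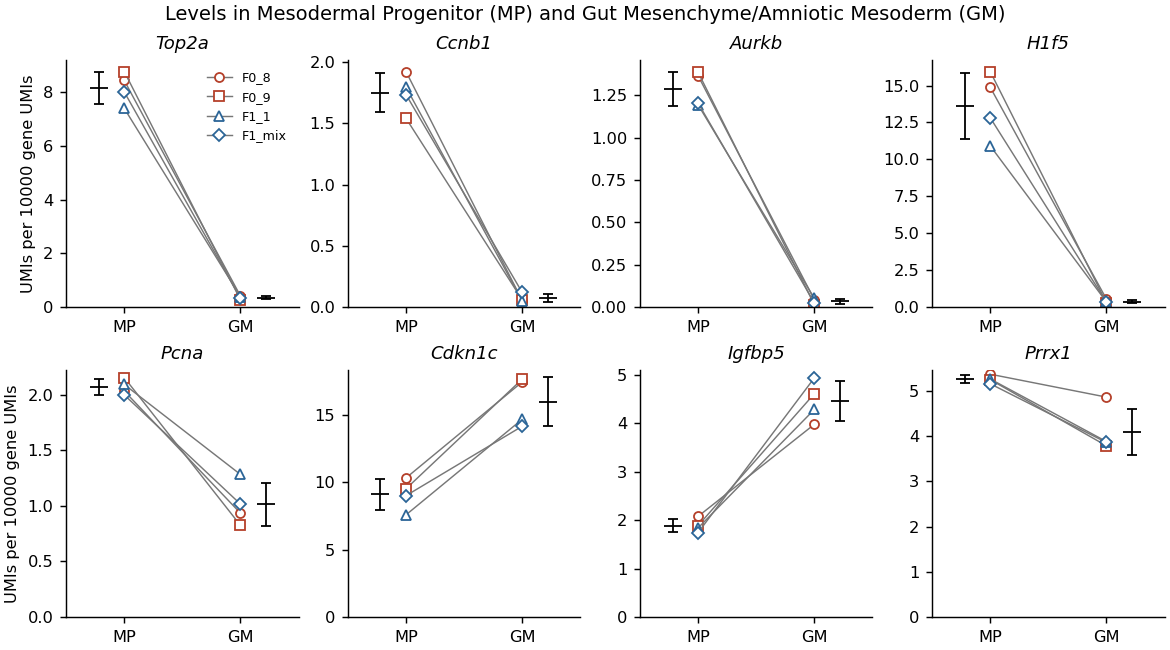
Levels of 8 genes in UMIs per 10000 gene UMIs (vertical axes, from 0) in MP and GM, 1 symbol per suspension (red founders, blue F1) joined within a suspension, with the mean and SD of the 4 suspensions as a bar beside them. The MP levels of Top2a, Ccnb1, Aurkb, H1f5, Pcna and Prrx1 lie above all GM levels, and those of Cdkn1c and Igfbp5 lie below them.

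The stretches from 150 bases before to 30 bases after the annotated start are shown for 6 of the higher genes, because the known elements of G2 and mitosis genes lie there, and for Igfbp5, which was lower in MP, as a contrast. Sequences are from RefSeq, build GRCm38.p6, 5′ to 3′ on the strand of the gene, and capitals mark CCAAT and the CHR letters TTTGAA or TTCGAA on either strand (CCAAT reads ATTGG and TTTGAA reads TTCAAA on the other strand).
Cdk1, chr10:69352883-69353062, minus strand: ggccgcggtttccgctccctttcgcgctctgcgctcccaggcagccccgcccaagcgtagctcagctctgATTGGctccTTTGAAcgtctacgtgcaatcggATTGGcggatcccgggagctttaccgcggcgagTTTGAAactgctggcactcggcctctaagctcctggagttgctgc
Ccnb1, chr13:100786457-100786636, minus strand: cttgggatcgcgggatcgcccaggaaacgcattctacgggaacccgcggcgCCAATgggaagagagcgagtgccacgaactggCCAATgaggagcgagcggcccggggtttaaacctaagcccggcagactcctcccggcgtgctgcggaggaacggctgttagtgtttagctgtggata
Aurka, chr2:172370541-172370720, minus strand: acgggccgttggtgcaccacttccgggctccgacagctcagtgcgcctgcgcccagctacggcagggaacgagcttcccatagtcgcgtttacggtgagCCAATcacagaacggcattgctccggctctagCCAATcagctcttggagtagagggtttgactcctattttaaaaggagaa
Cdc20, chr4:118437314-118437493, minus strand: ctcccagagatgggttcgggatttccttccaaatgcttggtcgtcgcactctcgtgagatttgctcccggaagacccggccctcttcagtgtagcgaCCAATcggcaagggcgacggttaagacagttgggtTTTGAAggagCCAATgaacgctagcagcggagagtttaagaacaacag
Ube2c, chr2:164769779-164769958, plus strand: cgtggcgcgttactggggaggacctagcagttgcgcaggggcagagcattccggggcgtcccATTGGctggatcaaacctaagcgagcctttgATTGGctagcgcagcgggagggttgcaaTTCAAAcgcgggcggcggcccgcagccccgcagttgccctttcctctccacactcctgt
Top2a, chr11:99024160-99024339, minus strand: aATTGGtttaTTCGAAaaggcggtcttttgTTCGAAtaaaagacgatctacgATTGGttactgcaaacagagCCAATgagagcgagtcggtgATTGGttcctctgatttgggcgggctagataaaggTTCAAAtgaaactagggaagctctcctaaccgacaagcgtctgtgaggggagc
Igfbp5, chr1:72874836-72875015, minus strand: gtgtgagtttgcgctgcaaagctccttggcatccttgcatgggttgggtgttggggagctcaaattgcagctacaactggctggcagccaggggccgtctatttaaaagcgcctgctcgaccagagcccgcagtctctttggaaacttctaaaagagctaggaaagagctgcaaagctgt

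Each of these 6 higher genes held 2 or more CCAAT boxes in the stretch shown, and Cdk1, Cdc20, Ube2c and Top2a also held a CHR element, while Igfbp5 held neither. In Cdk1, a CCAAT box and a CHR element lie 48 and 15 bases before the start, and in Ube2c a CCAAT box and the CHR element lie 57 and 29 bases before it. Over windows from 250 bases before to 50 after the start, which matched 305 of the 377 genes that were 2-fold or more higher (341 windows, since a gene can have several starts), 67.7% held CCAAT and 47.8% held TTTGAA or TTCGAA. Both elements stood together in 35.2% of these windows, against 5.77% of the 11337 windows of all genes tested and 2.07% of the 241 windows of genes 2-fold or more lower. Among genes 8-fold or more higher (112 windows of 106 genes), 55.4% held both. Windows with 2 or more CCAAT boxes made up 40.8% for genes 2-fold or more higher, 50.9% for those 8-fold or more higher and 15% for all genes tested. The 6 genes shown are picked examples and do not stand for all higher genes. For genes 2-fold or more lower, 34.4% of windows held CCAAT and 11.6% a CHR element, against 38.4 and 13.8% for all genes tested. Of all 32851 windows in the table, 37.4% held CCAAT, 19.2% a CHR element and 7.52% both. The letters TTTGGCGC, TTTCGCGC or TTTCCCGC, as bound by E2F factors, occurred in 11.7% of the windows of genes 2-fold or more higher, in 6.25% of those 8-fold or more higher, in 3.63% of all genes tested and in 0.83% of genes 2-fold or more lower. These are counts of letters on both strands, and the motifs were chosen with the gene values known.

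Genes of mitosis were grouped by role, with their values known. All 31 centromere and kinetochore genes tested were higher, with a median log2 fold change of 2.71, from 0.38 for Cenpt to 4.82 for Ska1. Cenpt lost its call with any 1 of the 4 suspensions left out, with DESeq2 and in thinned cells (each drawn down to 5000 gene UMIs), which left 30 of 31, or 29 of 30 tested in thinned cells. All 12 mitotic kinesins, the motors of the spindle, were higher, with a median of 4.26, and Kif14, Kif11 and Kif2c led them at 5.63 ± 0.33, 5.30 ± 0.15 and 4.99 ± 0.22. All 16 spindle and cytokinesis genes rose, from Numa1 at 0.25 ± 0.07 to Hmmr at 6.09 ± 0.17, with 15 of 16 called without F0_9, F1_1 or the block or with DESeq2. The 4 genes of the chromosomal passenger complex (Aurkb, Incenp, Cdca8 and Birc5) were higher at 3.10 to 5.38, and together they stood at 10.2 to 11.9 UMIs per 10000 in the MP sums and at 0.647 to 1.10 in the GM sums. All 8 condensin genes, which compact chromosomes, rose, with Ncapg at 5.21 ± 0.18 and the shared subunits Smc2 and Smc4 at 2.20 ± 0.07 and 2.91 ± 0.11. These medians stand beside -0.02 for all genes tested, of which 16.1% were higher. A gene that passed the filter only through MP had to be higher. The counts of these groups, and of the groups by role below, are therefore a description.

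Among kinases and phosphatases of the cycle, 19 of 20 (95%) were higher, beside 16.1% over all genes tested. Plk1 and Pbk both stood at 5.13 (SE 0.19 and 0.16), Ttk, a kinase of the spindle checkpoint, at 4.84 ± 0.17, and Cdk1 at 3.67 ± 0.11, while Cdk4, a partner of the D cyclins, was higher by only 0.21 ± 0.04. In the anaphase-promoting complex 13 of 19 genes (68.4%) rose, 8 with DESeq2 and 9 without F0_8 or in thinned cells, led by the enzyme Ube2c (4.91 ± 0.10), the activator Cdc20 (4.19 ± 0.15) and the inhibitor Fbxo5 (3.59 ± 0.12), while the core subunits that rose did so by 0.27 to 0.68. Of 12 genes of cohesin, which holds sister chromatids, and its regulators, 9 (75%) were higher and 1 (8.33%) lower: the ring subunits Smc1a and Smc3 rose by 0.63 ± 0.06 and 0.39 ± 0.06, and its regulators Sgo2a, Cdca5 and Esco2 by 5.21 ± 0.21, 4.59 ± 0.29 and 5.39 ± 0.22, while Esco1, an acetyltransferase of cohesin, was lower at -0.59 ± 0.13. Esco1 lost its call with DESeq2 and in thinned cells (-0.62). Securin, Pttg1, did not pass the test. Of the factors that act at E2F, CCAAT and CHR elements, 15 of 21 (71.4%) were higher, with Foxm1 at 4.57 ± 0.25 and Mybl2 (B-Myb) at 2.58 ± 0.21. Tfdp2 was called lower at -0.23 ± 0.07. That call was lost with any 1 suspension left out, with DESeq2, without the filter, without the block and in thinned cells.

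Groups of S phase genes had median log2 fold changes from 0.72 for replication genes to 3.21 for histones. Among replication genes 26 of 34 (76.5%) were higher and 3 (8.82%) lower, with a median log2 fold change of 0.72. Over all genes tested 16.1% were higher and 14.4% lower. Mcm10, Clspn and Cdc45, which act at the moving fork, rose by 2.95 ± 0.24, 2.13 ± 0.13 and 1.84 ± 0.18. Pcna, the clamp of the DNA polymerases, stood at 2.03, 2.15, 2.09 and 1.999 in the MP sums and at 0.934, 0.824, 1.28 and 1.02 in the GM sums, without overlap, and its fitted difference was 1.10 ± 0.09 (adjusted p = 1.77e-06, edgeR). The Mcm2-7 helicase, which is loaded in G1 before S phase, went in both directions: Mcm5 and Mcm7 rose by 0.47 ± 0.10 and 0.45 ± 0.07, Mcm2, Mcm4 and Mcm6 were called lower at -0.32 ± 0.09, -0.32 ± 0.08 and -0.33 ± 0.10, and the remaining member did not pass the test. The calls of Mcm2, Mcm4 and Mcm6 were lost without F1_1 (-0.24, -0.29 and -0.23), without F1_mix (-0.29, -0.25 and -0.21), in thinned cells (-0.13, -0.10 and -0.29) and with DESeq2 (-0.32, -0.32 and -0.33), and that of Mcm2 also without the block by suspension (-0.31). All 6 genes of nucleotide supply rose (median 1.68), led by Tk1 (2.69 ± 0.16), Rrm2 (2.35 ± 0.13) and Tyms (1.85 ± 0.08), and so did all 11 genes of fork repair (median 2.42, with 10 of 11 called without F0_8, F0_9 or F1_mix or with DESeq2), among them Neil3 (4.51 ± 0.16) and Brca1 (2.13 ± 0.14).

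Histones, which package newly copied DNA, were higher in MP across most of the genes tested. Of 64 replication-dependent histone genes, whose transcripts mostly end in a stem-loop without a poly(A) tail, 37 had enough UMIs to be tested and 36 of these were higher in MP, with a median log2 fold change of 3.21. A gene that passed the filter only through MP had to be higher, so this count is a description. Linker histone H1f5 stood at 14.9, 15.9, 10.9 and 12.8 UMIs per 10000 in MP and at 0.520, 0.279, 0.330 and 0.321 in GM. H2ac10 had 163 UMIs in MP and 0 in GM, which makes it at least 51.3-fold higher against a floor of 3 UMIs over the GM group. The copies of these genes are nearly identical, so the values of single members are uncertain. Histones made throughout the cycle also differed: H2az1, a variant found at promoters, stood at 31.8 to 35.1 in MP and 14.2 to 17.7 in GM (1.17 ± 0.05), and H2ax, the variant marked at DNA breaks, was higher by 2.34 ± 0.06.

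In the cell cycle list the genes lower in MP were p57 and the cyclins of G1, beside the 3 Mcm genes above. Cdkn1c (ENSMUSG00000037664), which encodes the CDK inhibitor p57, stood at 10.3, 9.50, 7.57 and 8.99 in the MP sums and at 17.4, 17.6, 14.7 and 14.1 in the GM sums, with no overlap, and its fitted difference was -0.76 ± 0.05 (adjusted p = 5.90e-08, edgeR). Mxd4, an antagonist of Myc, stood at 0.387 to 0.424 in MP and 1.13 to 1.29 in GM and differed by -1.51 ± 0.08. Cyclins D1, D2 and D3 (Ccnd1, Ccnd2 and Ccnd3) were lower at -0.39 ± 0.08, -0.51 ± 0.05 and -0.28 ± 0.06. The other CDK inhibitors tested, Cdkn1b (p27) and Cdkn2d, were higher, at 0.72 ± 0.12 and 1.28 ± 0.14. Of the 33 cell cycle genes tested in a list drawn from markers of S, G2 and mitosis with cyclins and inhibitors, 22 were higher, 7 lower and 4 not called. With a suspension left out 21 to 23 were higher and 4 to 7 lower, and Ccnd3 lost its call with DESeq2.

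The genes that led GM had far smaller folds than those that led MP. With at least 1 UMI per 10000 in every GM sum, the 15 with the largest folds, from 2.86 down to 1.68, were Mxd4, the heparan sulfatase Sulf1, the metalloprotease Adamts9, the growth factor binding protein Igfbp5, Adamtsl1, the adhesion proteins Flrt2 and Alcam, Itm2a, Creb5, Tafa2, Tgfb2, Sox6, Col25a1, Cdkn1c and Tmem176b. Igfbp5 stood at 2.08, 1.89, 1.84 and 1.74 UMIs per 10000 in MP and at 3.98, 4.61, 4.28 and 4.94 in GM, and Sulf1 at 1.48, 1.56, 1.06 and 1.23 in MP and 3.61, 4.25, 2.62 and 2.58 in GM. Neither gene overlapped between the types, and they differed by -1.18 ± 0.08 and -1.22 ± 0.07 (adjusted p = 1.12e-07 and 1.66e-08, edgeR).

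Cartilage genes were lower in MP. Of 14 tested, 13 (92.9%) were lower and 0 higher, beside 14.4% lower over all genes tested, with a median log2 fold change of -0.78. In single cells thinned to 5000 gene UMIs the list gave a median of 5 UMIs in GM (95th percentile 48.6, highest 162) and 3 in MP (95th percentile 25, highest 97), and 52.8% of GM and 43.4% of MP cells held 5 or more. Hapln1, which links aggrecan to hyaluronan, differed by -1.52 ± 0.24 and stood at 0.0385 to 0.0986 in MP and 0.133 to 0.222 in GM. The chondrocyte regulators Sox9, Sox5 and Sox6 were lower by smaller steps (at -0.39 ± 0.08, -0.41 ± 0.08 and -0.80 ± 0.12). Sox9 stood at 2.58, 2.51, 1.66 and 2.16 in MP and 3.88, 3.89, 2.24 and 2.32 in GM, so the founder sums of MP exceeded the F1 sums of GM while each suspension on its own was lower in MP. Collagens followed the same direction, with 18 of 29 (62.1%) lower and 0 higher. Col8a2 led at -1.89 ± 0.27, and the fibril collagens Col1a2, Col3a1 and Col2a1 stood at -0.42 ± 0.06, -0.21 ± 0.04 and -0.41 ± 0.08. Of 32 matrix glycoproteins and proteoglycans, 18 (56.2%) were lower, such as Sparc (-0.67 ± 0.07) and Vcan (-0.34 ± 0.07), and 1, Fbln1, was higher (0.62 ± 0.06). Without the pairing by suspension 6 cartilage genes, 9 collagens and 15 matrix genes were called lower, so the matrix count changed least.

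Some transcription factors of limb and trunk mesenchyme were higher in MP. In the limb list of 30 genes 9 (30%) were higher and 1 (3.33%) lower, with a median of 0.40. Over all genes tested 16.1% were higher and 14.4% lower. With a suspension left out 8 to 12 limb genes were higher and 0 to 1 lower. In the somite list of 12 tested 5 (41.7%) were higher and 3 (25%) lower, with a median of 0.05, and 3 were higher without F0_9, with DESeq2 or without the block. Prrx1, a factor of limb and other mesenchyme, stood at 5.38, 5.26, 5.27 and 5.16 in MP and 4.87, 3.79, 3.88 and 3.86 in GM, which differed by 0.42 ± 0.06 (adjusted p = 0.000136, edgeR). Twist1, a factor of early mesoderm and mesenchyme, was higher by 0.48 ± 0.07, and Lhx9 and Msx1, of the limb bud, by 1.03 ± 0.14 and 0.62 ± 0.12. Uncx, which marks the caudal part of each somite, had the largest fold of the somite list at 1.45 ± 0.20, and Pax3 rose by 0.76 ± 0.15, while Foxc1, Foxc2 and Scx, the tendon factor, were lower at -0.70 ± 0.14, -0.53 ± 0.16 and -0.46 ± 0.09. Of 31 Hox genes 7 (22.6%) were higher and 0 lower, beside 16.1% higher over all genes tested, and the median of the list was 0.08. The 7 were Hoxc11, Hoxd13, Hoxd11, Hoxa11, Hoxa2, Hoxa10 and Hoxa9, at 1.18 down to 0.55. Hoxc11 lost its call without F0_8 (0.85), with DESeq2 and without the block, and was not tested in thinned cells. With a suspension left out 6 to 9 Hox genes were higher and 0 to 1 lower. Hoxd11 stood at 0.899, 1.10, 0.478 and 0.882 in MP and 0.642, 0.758, 0.158 and 0.288 in GM, higher in MP within each suspension although the groups overlapped. Without the block by suspension 4 limb genes and 2 Hox genes were called higher.

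The names Gut Mesenchyme and Amniotic Mesoderm were checked against their marker lists. Of 22 gut mesenchyme genes tested, 7 (31.8%) were higher in GM (Wnt4, Gata4, Gata6, Tcf21, Osr1, Barx1 and Ptch1) and 0 in MP, while Foxf1 and Foxf2, which define the mesenchyme of the gut wall, did not pass the test, although Foxf1 was called (-0.54) without F0_9. Foxf1 stood at 0.301 to 0.543 in MP and 0.146 to 0.784 in GM. The summed gut list stood at 6.95 to 10.97 UMIs per 10000 in GM and 6.26 to 7.67 in MP. In other cell types it stood at 7.21 to 7.97 (Chondrocyte), 6.01 to 8.72 (Hepatocyte), 6.15 to 6.86 (Epithelial Cell) and 2.95 to 4.15 (CNS Neuron). The Chondrocyte and Hepatocyte ranges overlapped that of GM, so this level was not particular to GM. The summed limb list stood at 12.2 to 16.3 in GM and 16.4 to 19.6 in MP. The summed cartilage list stood at 15.2 to 28.2 in GM, above its level in Chondrocyte cells within each suspension. Of 11 amniotic and allantoic genes tested, 5 (45.5%) were higher in GM (Krt18, Dlk1, Postn, Pmp22 and Igf2), with Hand1 not called. In the mesothelium list 3 of 9 (33.3%) and in the smooth muscle list 4 of 9 (44.4%) were higher in GM, and 0 in MP. Over all genes tested 14.4% were higher in GM. Of the limb list 20 of 30 genes and of the gut list 15 of 22 did not pass the test. The gut count was 2 without the block by suspension, 3 with DESeq2, 3 without F1_1 and 4 without F1_mix, and the amniotic count 2 with DESeq2 and 3 without F1_mix. The mesothelium count was 5 without F1_1, 2 without F0_9, without F1_mix, without the block or with DESeq2, and 1 of 5 tested in thinned cells. In the smooth muscle list 6 of 8 tested were higher in GM without F0_8 and 2 of 7 in thinned cells, and 1 gene was higher in MP without F1_mix and in thinned cells.

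**Figure D3:**
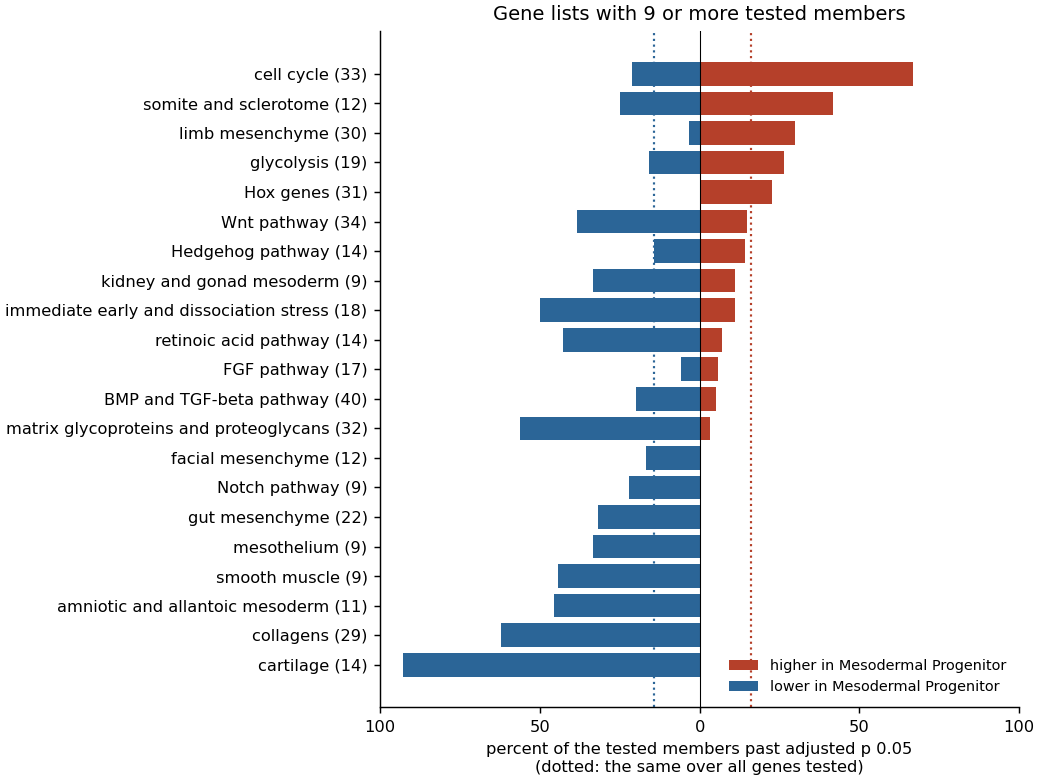
Share of the tested members of each list that were higher (red, to the right) or lower (blue, to the left) in MP at an adjusted p under 0.05, with the number of tested members in brackets, for the marker and pathway lists with 9 or more (the groups by role in cell division are not drawn). Dotted lines mark 16.1% higher and 14.4% lower over all genes tested, and of the lists drawn the cell cycle list reaches farthest to the right and the cartilage list farthest to the left.

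In the Wnt list 5 of 34 genes (14.7%) were higher in MP and 13 (38.2%) lower, against 16.1 and 14.4% over all genes tested. The higher count was 3 without F1_mix or without the block and 2 with DESeq2, which called 8 lower. The receptor Fzd10 led the higher genes at 0.97 ± 0.27, Axin2 and Lef1, a target and a nuclear effector of the canonical pathway, rose by 0.81 ± 0.15 and 0.81 ± 0.17, and the secreted antagonists Wif1 and Frzb rose by 0.77 ± 0.17 and 0.50 ± 0.13. The R-spondins Rspo1, Rspo2 and Rspo3, which raise Wnt receptor levels, their receptor Lgr4 and the antagonists Sfrp1 and Sfrp2 were lower, at -0.51 to -0.81. In the retinoic acid list 6 of 14 were lower, among them the receptor Rarb (-0.83 ± 0.08) and the synthetic enzyme Aldh1a2 (-0.74 ± 0.14), and the degrading enzyme Cyp26b1 was the 1 member called higher (0.63 ± 0.14), a call lost with DESeq2, without the block and in thinned cells (0.37), which called 4, 5 and 3 lower. In the BMP and TGF-beta list 2 of 40 genes (5%) were higher and 8 (20%) lower, against 16.1 and 14.4% over all genes tested. The lower count was 4 without F0_8, 4 without the block and 3 with DESeq2, and the higher count ran from 1 to 4 with a suspension left out and was 0 in thinned cells. The lower genes were led by the ligands Inhba (-1.37 ± 0.24) and Gdf5 (-1.25 ± 0.32) and the antagonist Nog (-1.13 ± 0.28), and the targets Id1 and Id2 were called higher at 0.28 ± 0.08 and 0.27 ± 0.06. Gdf5 lost its call with DESeq2 (-1.15) and without the block (-1.50), and was not tested without F0_8 or in thinned cells. Nog lost its call with DESeq2 and without F0_8 (-1.08), and was not tested in thinned cells. Id1 lost its call without F0_9 (0.29), without F1_1 (0.16), with DESeq2 and in thinned cells, and Id2 in thinned cells (0.18). The FGF and Hedgehog lists held 1 of 17 and 2 of 14 genes in each direction, that is 5.88 and 14.3%, and the Notch list 0 higher and 2 lower (22.2%) of 9. The Hedgehog list had 0 higher without F0_8 or F1_1 and 0 called with DESeq2, the FGF list 0 higher without F1_mix or with DESeq2, and the Notch list 1 lower without F0_8 or F1_mix.

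Genes of dissociation stress and other cell types were counted in the same way. Over all genes tested 16.1% were higher and 14.4% lower in MP. Of 18 immediate early and stress genes, 9 (50%) were lower in MP, such as Ier3 (-1.03 ± 0.30), Fos (-0.39 ± 0.07) and Egr1 (-0.65 ± 0.10), and the heat shock genes Hsp90aa1 and Dnajb1 were higher (0.62 ± 0.05 and 0.50 ± 0.12). The count of 9 was 3 without the block, 3 with DESeq2, 4 without F0_8 and 6 without F0_9 or F1_1. Ier3 lost its call without F0_8 (-0.94), F0_9 (-1.055) or F1_1 (-0.91) and with DESeq2, and was not tested in thinned cells. Fos and Egr1 lost theirs without the block. Of 19 glycolysis genes, 5 (26.3%) were higher and 3 (15.8%) lower, from -0.83 for Hk1 to 0.31 for Ldha among those called. These glycolysis counts were 1 and 3 without the block, 3 and 1 with DESeq2 and 2 and 1 of 17 tested in thinned cells. Of 12 facial mesenchyme genes 2 (16.7%) were lower, and of 9 kidney and gonad genes 1 (11.1%) was higher and 3 (33.3%) lower. Without F1_1, F1_mix or the block, with DESeq2 and in thinned cells 0 facial genes were lower, and 1 kidney and gonad gene was lower without F1_mix or the block, with DESeq2 and in thinned cells. Of 4 skeletal muscle precursor genes tested Pax3 was the 1 that was higher. Defining markers of other cells were near 0: the summed level of 10 macrophage genes stood at 0.0265 to 0.0524 in MP and 0.0143 to 0.0609 in GM, of 10 endothelial genes at 0.323 to 0.394 and 0.403 to 0.617, and of 8 hepatocyte genes at 0.0131 to 0.0872 and 0.0665 to 0.104. Globins and other erythroid genes summed to 1.25 to 1.38 in MP and 1.25 to 1.45 in GM, with 0 of 6 called, and of 6 neuronal genes tested Elavl3 (-2.08) and Map2 (-0.40) were called lower in MP. Map2 lost its call without F0_8 (-0.18) or F1_1 (-0.44), without the block, with DESeq2 and in thinned cells, and 3 neuronal genes were lower without F1_mix. The lists of heart muscle, endothelium, epithelium, neural crest glia, macrophages and hepatocytes had 0 genes called of 1, 2, 1, 3, 0 and 0 tested. Without F1_mix the heart muscle gene (-1.05) and the epithelial gene (-1.56) were called lower, and without F1_1 1 neural crest gene was called higher.

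Single cells were compared after each was drawn down to 5000 gene UMIs, which left out 1 cell of MP and 6 of GM. The 14 genes of G2 and mitosis in the cell cycle list (Mki67, Top2a, Ccna2, Ccnb1, Ccnb2, Cdk1, Cdc20, Aurka, Aurkb, Plk1, Bub1, Cenpa, Cenpe and Cenpf) gave a median of 17 UMIs per MP cell and 0 per GM cell. Of 495 MP cells 0 lacked these transcripts altogether, and 473 (95.6%) held 5 or more, between 92.7 and 97.2% in the 4 suspensions. Of 668 GM cells, 343 held none and 57 (8.53%) held 5 or more, between 5.92 and 12.5%. The difference was therefore one of nearly every cell and not of a few cells with high counts. Because the authors' clusters were cut from these genes too, the separation of cells is a description.

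**Figure D4:**
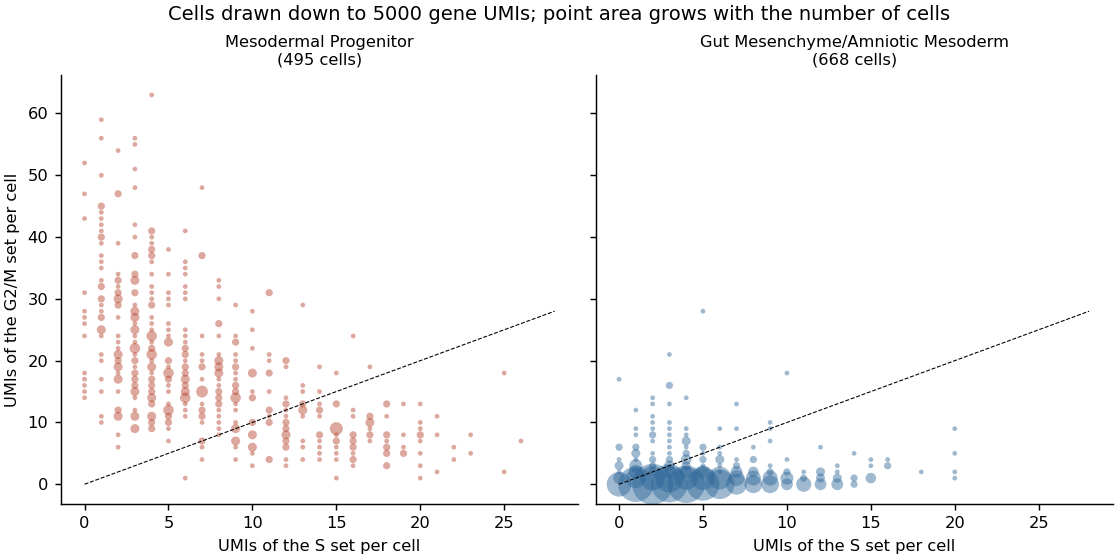
UMIs of the 14 G2/M genes (vertical axis) against UMIs of 14 S phase genes (horizontal axis) in each cell drawn down to 5000 gene UMIs, for 495 MP and 668 GM cells, point area growing with the number of cells and the dashed line marking equal counts. MP cells spread along an arc from many G2/M and few S transcripts to the reverse, while most GM cells lie on or near the horizontal axis.

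Within MP, cells rich in G2/M transcripts were poor in S phase transcripts. The 14 S phase genes (Pcna, Mcm2 to Mcm7, Ccne1, Ccne2, E2f1, Cdc6, Cdt1, Rrm2 and Tyms) gave a median of 6 UMIs per MP cell and 4 per GM cell. Across MP cells the S counts and G2/M counts were related by a Spearman rho of -0.709 in F0_8 (130 cells), -0.712 in F0_9 (96), -0.601 in F1_1 (128) and -0.601 in F1_mix (141), with all cells from 1 library and each drawn down to the same number of gene UMIs. In GM the same relation ran from -0.0891 to 0.202. The clusters were cut from these genes too, and cells with no UMI of either set numbered 0 in MP and 21 in GM. The part of that selection in the relation was not tested. S counts exceeded G2/M counts in 123 of 495 MP cells (24.8%, and 22.7 to 26.2% by suspension) and in 542 of 668 GM cells (81.1%). GM cells with transcripts of this set but few of G2/M were common, since 41.6% of GM cells held 5 or more of its UMIs. The set includes Mcm2 to Mcm7, which act from G1, so this share does not count cells in S phase. Rrm2, Tyms and Pcna were found in 15.6, 29.3 and 33.7% of GM cells.

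At this depth Top2a was found in 87.7% of MP cells (95% Clopper-Pearson interval 84.5 to 90.4%), in 11.2% of GM cells (8.93 to 13.9%) and in 3.69% of 515 CNS Neuron cells, taken as cells that do not divide (2.24 to 5.70%). Aurkb was found in 43.0, 1.65 and 0.583% of these cells. The CNS Neuron cells are an imperfect background, since 16 of them held 5 or more G2/M UMIs (highest 20), against 0 of 489 Neuroectoderm/Glia cells. Before the draw the median gene UMIs were 18844 in MP, 13435 in GM and 11003 in CNS Neuron cells. Part of the Top2a found in GM thus lay above the share in neurons, while for Ube2c the 10.8% in GM did not exceed the 11.3% in neurons. Cdkn1c was found in 92.1% of MP and 98.2% of GM cells, and Prrx1 in 65.7 and 59.1%, against 4.23 and 2.11% of 142 Erythroblast cells, whose median was 29141.5 gene UMIs. Intervals cover counting error only.

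Set beside the other cell types, MP had the highest summed level of the 14 G2/M genes in each of the 4 suspensions, at 39.96, 39.0, 35.3 and 38.0 UMIs per 10000, and GM stood at 2.10 to 3.95. By their medians, Neuronal Progenitor cells came next at 32.2 to 33.7, then Erythroblast cells at 17.6 to 31.6. Chondrocyte cells stood at 2.57 to 5.06, a range that overlapped that of GM. MP also had a median doublet score (the authors' DoubletFinder value) of 0.312 to 0.318 by suspension against 0.259 to 0.269 in GM, with 0.330 in Neuroectoderm/Glia, where the G2/M median was 0 UMIs. The part of depth and of doublets in the comparison was not tested, and within MP the G2/M count was related to the doublet score by a rho of -0.146 to 0.0686 and to the depth before the draw by 0.107 to 0.184, above 0 in all 4 suspensions.

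**Figure D5:**
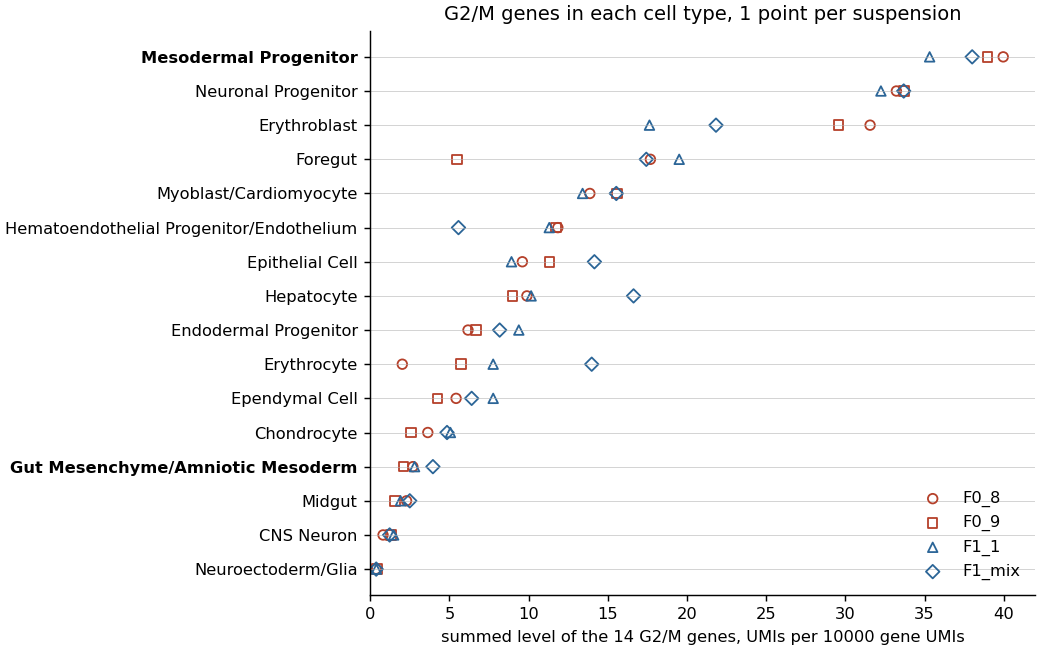
Summed level of the 14 G2/M genes in UMIs per 10000 gene UMIs (horizontal axis) for each cell type in the authors' table, 1 symbol per suspension, ordered by the median, with the compared types in bold. MP lies at the top at 35.3 to 39.96 and GM near the bottom at 2.10 to 3.95.

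EGFP had been removed by the authors before clustering and was therefore a measure that the cell type names did not use. It stood at 10.7, 9.59, 24.2 and 9.45 UMIs per 10000 in MP and at 12.1, 10.3, 22.6 and 9.81 in GM. F1_1 was the highest in both types, and the types lay close together within each suspension. The mean log2 difference was -0.06 ± 0.11 (SD, n = 4), lower in MP in 3 of 4 suspensions, and did not pass an exact two-sided permutation test (p = 0.375, where 0.125 is the smallest p that 4 pairs allow). edgeR gave -0.0028 ± 0.04 (SE) for EGFP.

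Whether the difference between the cell types itself differed between founders and F1 was tested as an interaction, a question that the clustering did not use. edgeR called 0 of 10954 genes (0%), with 621 at an unadjusted p under 0.05, and DESeq2 called 0, with 74. The 5 smallest p-values belonged to H2az1, Birc5, Lingo2, Stmn1 and Ebf2, each with an adjusted p of 0.116 (edgeR). Birc5, which encodes survivin of the passenger complex, had log2 ratios of 3.40, 3.54, 2.51 and 2.65 in F0_8, F0_9, F1_1 and F1_mix, and H2az1 had 1.30, 1.23, 0.98 and 0.94. For Birc5 the founders stood above F1 in MP (4.80 and 4.75 against 4.01 and 4.09) and below it in GM (0.456 and 0.408 against 0.702 and 0.652). Stmn1, a regulator of microtubules, had ratios of 0.93, 0.95, 0.54 and 0.64, Lingo2 of 0.27, -0.89, -2.70 and -2.40, and Ebf2, a factor of mesenchyme, of -0.71, -0.60, -0.06 and 0.04. On simulated counts this test found 44 to 54% of 4-fold and 2% of 2-fold differences. Those counts were drawn with a dispersion (spread between sums) of 0.05, against a common value of 0.0043 fitted to these data. With 2 suspensions a side this test thus has a power here that the simulation does not give. Without F0_8 it called 115 genes and without F0_9 55.

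The ratio of MP to GM cells was 0.506 and 0.561 in the founders F0_8 and F0_9, 1.32 in F1_1 and 0.959 in F1_mix. Both founder ratios lay below both F1 ratios, but with 2 suspensions a side the exact two-sided permutation test cannot go below p = 0.333, which is the value it gave. Embryo, generation and the draw of cells cannot be told apart here.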

How the data were processed

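Dissociated cells of mouse embryos at E11.5 were counted in a pooled 3′ droplet library. The authors deposited whole-number UMI counts per gene and cell for each of the 4 suspensions, made with Cell Ranger (version 7.2.0 per the file headers) against mm10 with EGFP added, and without ambient RNA correction. Their cell table gives cell type and cluster names from Seurat, after SoupX, removal of doublets and RECODE, and from the same deposited table the doublet score (a fraction) and the percent of mitochondrial UMIs were used as values of the authors. No further doublet caller was run. Cells were matched to the matrices by barcode and suspension. Per-sample columns left unused numbered 0.

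Counts of 21937 genes, without the 12 oligo features, were summed per suspension and cell type and tested with edgeR 4.0.16 (R 4.3.3; filterByExpr with a minimum count of 10, TMM scaling, quasi-likelihood F test) with the suspension as a block and Benjamini-Hochberg adjustment over all genes tested. The suspension pairs the sums because both types came from the same embryos, and deviations of the sums of a suspension correlated at 0.147 to 0.312 in all 4. The interaction used cell type by generation. Alternatives were DESeq2 1.42.0, RLE scaling, no filter, no block, each suspension left out, cells under 5% mitochondrial UMIs and cells thinned to 5000 gene UMIs (seed 20240501). Depth per sum limits genes of low level most. On simulated counts with 10908 genes tested, the main comparison recovered 100% of 4-fold and 55.1 to 76% of 2-fold changes. It called 0.0467% of unchanged genes. The simulated dispersion was 0.05 and the common dispersion fitted to the data 0.0043, so these shares do not give the power in the data.

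Named genes were, in each direction, the 15 with the largest fold among those called, changed alike in all 4 suspensions and at 1 UMI per 10000 or more in each sum of the higher type, besides members of the lists, EGFP and the 5 genes with the smallest interaction p. The members and lists were chosen with earlier results of these data known, and the lists by role of the cell division genes were added after their values were seen. Exact permutation tests, intervals and figures used Python 3.11.15 with numpy 2.4.6, pandas 2.3.3, scipy 1.17.1 and matplotlib 3.10.9. Promoter windows were matched by symbol for 8797 of 10951 symbols tested. The p-values measure the spread between these suspensions.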

Additional observations from a re-analysis of the deposited data

Results flagged for a closer look

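In 157 sets of 4 suspension values, 8 (5.10%) had a value far from the other 3 by Dixon's test, where chance gives about 1 in 20. EGFP in MP stood at 24.2 UMIs per 10000 in F1_1 and at 9.45 to 10.7 in the other suspensions. The log2 ratio of MP over GM was 0.14 for Prrx1 in F0_8, against 0.42 to 0.47 elsewhere, and -0.32 for Rspo2 in F0_8, against -1.08 to -1.01. For Map2 it was -0.99 in F0_8, against -0.25 to -0.24, and for Tmem176b -1.02 in F1_mix, against -0.74 to -0.73. Ldha had 0.12 in F1_1, against 0.29 to 0.31. Foxm1 had 6.28 in F1_mix, against 4.16 to 4.42, and Kif2c 7.80 in F0_9, against 4.45 to 4.63, each in the suspension in which its GM level was lowest.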

How the results depend on the processing

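The number of genes 2-fold or more higher in MP was 377 and ran from 301 to 413 over all alternatives, while the other counts depended more on the test and on depth. DESeq2 called 1237 genes, 794 higher and 443 lower, with 104 of them 2-fold or more lower, and every one of the 1237 was also called by edgeR. With cells thinned to 5000 gene UMIs, which left 8374 genes to test, 1717 were called, 911 higher and 806 lower, with 104 lower 2-fold or more. Without the filter on low counts 362 genes were 2-fold or more lower and the interaction had 139 calls. With a suspension left out, 2486 to 2624 genes were called, 1402 to 1506 of them higher and 1084 to 1168 lower, and the interaction had 0 to 115 calls (115 without F0_8 and 55 without F0_9, which leave 1 founder that is assumed to vary like the other suspensions). The cause was not tested.

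Without the replicate block 2854 genes were called, 1585 higher and 1269 lower. Of 153 genes described in the report, 29 were no longer called without the block, among them Sox9, Col2a1, Lef1, Hoxd11, Hoxd13 and Fos. DESeq2 lost 33 calls, the thinned cells 29 of the 138 genes tested there, and leaving out a suspension 10 to 15. Calls lost without F0_8 included Postn (-0.48) and Map2 (-0.18), without F0_9 Fzd10 (0.76) and Foxc2 (-0.36), without F1_1 Gata4 (-1.35) and Rspo1 (-0.77), and without F1_mix Frzb (0.37) and Tcf21 (-0.43). Cenpt, at an adjusted p of 0.0478 with edgeR, lost its call in each of the 4 (0.34 to 0.42), by DESeq2 (0.38) and with thinned cells (0.56).

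Of the genes described in the report, none that was called changed direction in the alternatives run. Among those not called, EGFP moved to 0.023 without the filter, 0.038 without the block and 0.0028 with cells under 5% mitochondrial UMIs, and ran from -0.043 (without F1_1) to 0.046 (without F0_8) with a suspension left out, being above 0 also without F0_9 (0.010) and F1_mix (0.0069). With a suspension left out Foxf2 ran from -0.44 (without F1_1) to 0.29 (without F1_mix), Hand1 from -0.69 (without F1_1) to 0.29 (without F0_8) and Pttg1 from -0.0031 (without F0_9) to 0.11 (without F0_8). Over its alternatives the mean log2 difference of EGFP ran from -0.11 to -0.02, and that of the cell ratio stood at -1.10 against -1.08. Low genes such as Hapln1, Hoxc11 and Wnt4 were not tested in thinned cells.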
